A study of Mus musculus with 10 samples.

Results

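Mitochondrial ribosomal protein genes, which encode the protein part of the ribosome inside mitochondria, were followed in the ventricles of adult mice labelled as lacking the coactivator PGC-1α. Members were the probe sets whose platform annotation gives a single symbol made of Mrpl or Mrps, a number and at most 1 letter. The rule found 85 of the 35556 probe sets, 53 for proteins named after the large subunit and 32 for proteins named after the small subunit, and these stood for 77 of 19938 genes, 48 large and 29 small. The 2 groups of 5 mice were compared, with 1 Affymetrix gene array for each mouse. The source names give all 10 mice the same genotype, PGC-1a-/-bf/f/MerCre: no PGC-1α (gene Ppargc1a), loxP-flanked Ppargc1b, the gene of PGC-1β, and MerCre, which is Cre made dependent on tamoxifen. At 2 months of age one group received tamoxifen at 50 mg/kg on each of 2 days (titled PGC-1a-/-bf/f/MerCre, labelled as lacking both coactivators), and the other received only the sunflower seed oil (titled PGC-1a-/-, labelled as lacking PGC-1α alone). Hearts were collected 1 month later, at 3 months. The titles and the series' design text do not give the vehicle group the floxed alleles or MerCre; the source names were followed here. No group received tamoxifen without floxed alleles, so an effect of the drug or of the active recombinase cannot be told apart from that of the deletion, and the sources used here do not name the promoter that drives MerCre.

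The mitochondrial ribosome translates the few messenger RNAs of mitochondrial DNA, all of which encode core subunits of the respiratory chain and ATP synthase. Its ribosomal RNAs come from mitochondrial DNA, but its proteins are nuclear-encoded, made in the cytosol and imported, so that one particle draws on both genomes. The large subunit holds the peptidyl transferase centre, the exit tunnel and the stalks that bind translation factors and release transfer RNA. The small subunit binds messenger RNA and reads codons. PGC-1α and PGC-1β are known to raise nuclear genes for mitochondria by docking on transcription factors such as NRF1, GABP and the oestrogen-related receptors. The design asks how these genes respond when the second coactivator is deleted from a heart that already lacks the first.

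The labels were checked first on the targeted genes, with all values given as log2 signal and each p from limma, adjusted over all genes tested. Ppargc1b read 9.76, 9.69, 9.82, 9.65 and 9.90 in the vehicle-labelled arrays and 9.93, 10.15, 10.11, 9.93 and 10.03 in the tamoxifen-labelled ones. All tamoxifen-labelled values were above all vehicle-labelled ones, a rise of 0.27 ± 0.061 (SE; adjusted p = 0.00529), against the direction its label gives. The sources used here do not say whether this probe set reads the deleted exons, so it may check nothing, and each direction below rests on the label. Ppargc1a, labelled as deleted in all 10 mice, read 10.70 to 11.04 in the vehicle-labelled and 10.95 to 11.58 in the tamoxifen-labelled arrays (adjusted p = 0.00814). These values are far above the brightness filter of 6.53 and so also go against the label, and here too the sources used here do not say which part of the gene is read. Ventricular muscle markers such as Myh6, Tnnt2 and Myl2 were bright in every array, with a mean log2 signal over 10 markers of 13.80 to 13.82 in the vehicle-labelled and 13.80 to 13.83 in the tamoxifen-labelled group. Markers of macrophages and fibroblasts moved with the groups, where 13.6% of all genes tested rose. Of the macrophage markers 8 of 10 rose (mean 8.78 to 8.99 against 9.01 to 9.28), and of the fibroblast markers 7 of 10 rose (9.72 to 9.88 against 9.96 to 10.20). Of the endothelial markers, 1 of 10 rose (Cldn5, 0.35), a smaller share than that of all genes. Of the smooth muscle markers 2 of 8 rose (Acta2 and Cnn1), and of the atrial markers 1 of 4 (Nppa, 0.42). The other atrial markers, Sln, Myl7 and Myl4, were negative and not called (-0.30, -0.20 and -0.17). Of the tested markers of lymphocytes and of erythroid cells, 2 each, limma called 0 (1 lymphocyte marker was lower at an unadjusted p under 0.05), and 0 of 5 granulocyte markers were bright enough to test. Single ventricular markers moved each way (Ryr2 at -0.16 and Actn2 at 0.18). The calls of Ryr2 and Acta2 were lost in some leave-one-out fits, that of Ryr2 without vehicle-labelled array 1, 3 or 5 or tamoxifen-labelled array 5 and that of Acta2 without tamoxifen-labelled array 3 or 5 (adjusted p from 0.0514 to 0.0656). Their part in the results below was not tested, and in such whole-tissue RNA fewer cells of a type and less RNA per cell cannot be told apart. Tamoxifen-labelled array 2 was brighter than the rest, its median over all probe sets being 7.31 against 7.18 to 7.24 in the other arrays.

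Genes for the mitochondrial ribosome were lower in the tamoxifen-labelled arrays, in both subunits, and none was called higher. All 77 genes were above the brightness filter, and 48 of them fell at a limma adjusted p under 0.05 (62.3%, against 8.28% of all 13957 genes tested). A negative log2 fold change was seen in 71. A rise was called by limma in 0 members (13.6% of all genes), with 1 member higher at an unadjusted p under 0.05. The median log2 fold change, tamoxifen- minus vehicle-labelled throughout, was -0.22 over the members and 0.014 over all genes. In 42 members every tamoxifen-labelled value lay below every vehicle-labelled one (6.12% of all genes), and in 1 member, Mrps18c, every value lay above (10.5%). Falls of at least 1.5-fold were called for 9 members, 6 large and 3 small, against 1.07% of all genes. Without tamoxifen-labelled array 2 the count of lower members was 52. Rises made up 62.2% of all calls over all genes, 49.6% without that array and 51.6% with array weights, which count less consistent arrays less.

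**Figure D1:**
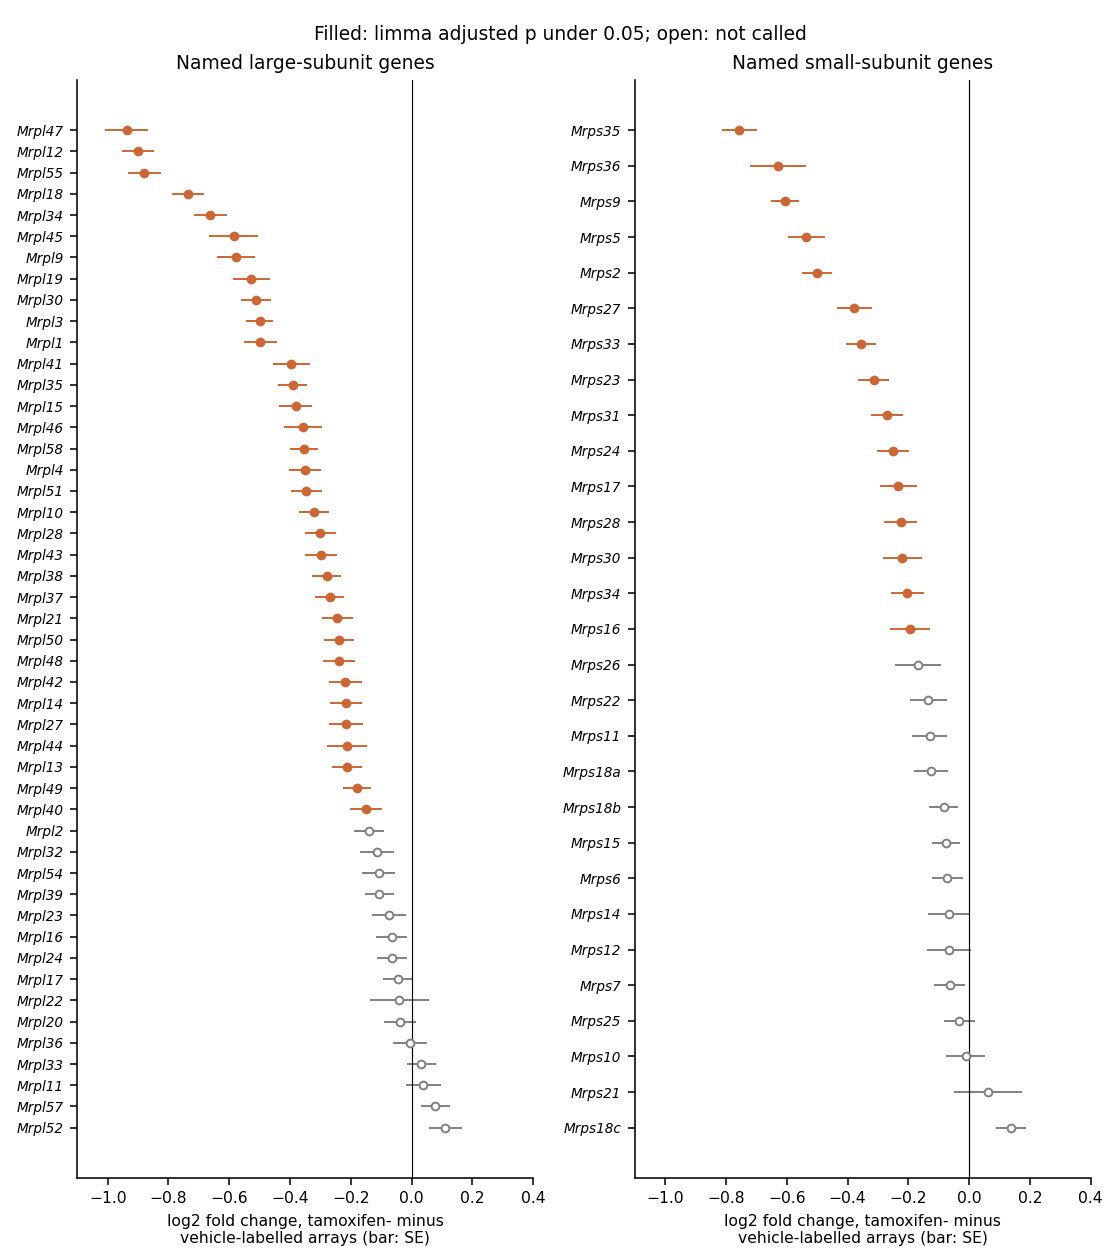
Log2 fold change (tamoxifen- minus vehicle-labelled arrays, x axis) of each of the 48 large-subunit and 29 small-subunit genes, with SE bars; filled points had a limma adjusted p under 0.05 and open points did not. The 33 filled large-subunit and 15 filled small-subunit points all lie below 0, from -0.15 to -0.94 and from -0.19 to -0.76.

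Of the large-subunit genes 33 of 48 fell (68.8%), and of the small-subunit genes 15 of 29 (51.7%). The medians were -0.24 and -0.19, with an SD over genes of 0.25 and 0.21, so the spread among genes of one subunit was several times the distance between the subunits. In each array the mean log2 signal of the 48 large-subunit genes was 9.82, 9.85, 9.85, 9.80 and 9.81 in the vehicle-labelled group and 9.49, 9.61, 9.54, 9.51 and 9.51 in the tamoxifen-labelled group. For the 29 small-subunit genes it was 9.34, 9.40, 9.39, 9.36 and 9.34, and then 9.11, 9.24, 9.14, 9.11 and 9.11. The groups did not overlap for either subunit, and array 2 was the highest of the tamoxifen-labelled arrays in both. The large mean minus the small mean ran from 0.44 to 0.48 in the vehicle-labelled arrays and from 0.37 to 0.40 in the tamoxifen-labelled arrays, so the gap was narrower in each tamoxifen-labelled array. No p is given for it, since the genes were chosen with earlier results of these data known. Within a group, 68 of the 77 genes were above their group mean in tamoxifen-labelled array 2, and 16 to 37 were in the other tamoxifen-labelled arrays.

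**Figure D2:**
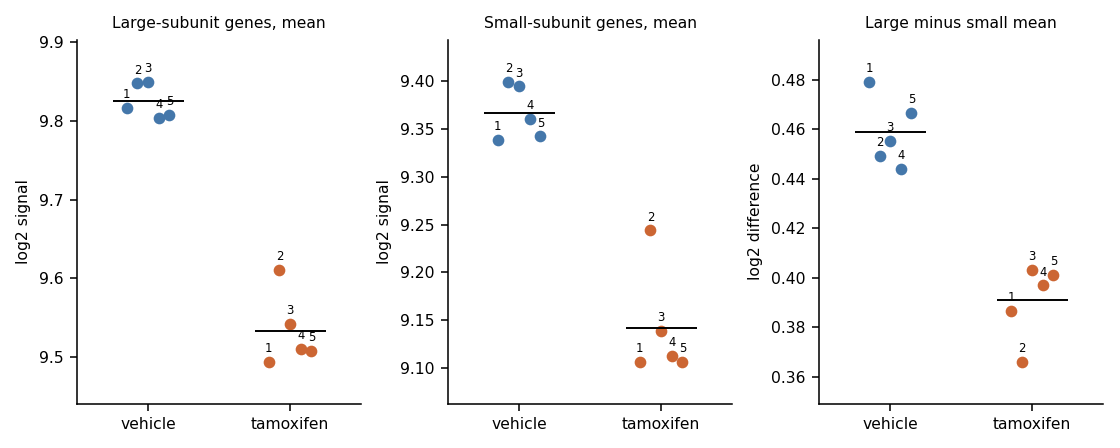
Mean log2 signal per array of the large-subunit genes, of the small-subunit genes, and their difference (y axes, which do not start at 0); numbers mark the array and lines the group mean of 5. Both means are lower in all 5 tamoxifen-labelled arrays, and the difference runs from 0.37 to 0.40 there against 0.44 to 0.48.

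By the probe sets used, the 3 deepest falls of all members, Mrpl47, Mrpl12 and Mrpl55, were in the large subunit. Mrpl47, the counterpart of a bacterial protein at the exit of the peptide tunnel, read 9.09, 9.25, 9.27, 9.26 and 9.02 in the vehicle-labelled arrays and 8.04, 8.39, 8.31, 8.31 and 8.15 in the tamoxifen-labelled ones. It fell 1.92-fold, by 0.94 ± 0.071 (SE; adjusted p = 9.19e-08), but its second probe set gave only -0.34, with overlapping groups. Over 19 alternative analyses the log2 fold change of Mrpl47 ran from -0.98 to -0.64. Mrpl12, the stalk protein that recruits elongation factors, read 10.38, 10.31, 10.36, 10.41 and 10.33 in the vehicle-labelled arrays and 9.45, 9.40, 9.62, 9.46 and 9.36 in the tamoxifen-labelled ones. The vehicle-labelled values lie close together and the fall was 0.90 ± 0.054 (SE; adjusted p = 7.05e-09), or 1.87-fold. Mrpl55 read 9.90, 9.85, 9.93, 9.89 and 9.76 in the vehicle-labelled arrays and 8.96, 9.07, 9.09, 8.89 and 8.92 in the tamoxifen-labelled ones. It fell by 0.88 ± 0.054 (SE; adjusted p = 1.04e-08). Mrpl18, of the family that binds the smallest ribosomal RNA in other ribosomes, read 10.51, 10.62, 10.65, 10.65 and 10.47 in the vehicle-labelled arrays and 9.79, 9.80, 9.93, 9.89 and 9.81 in the tamoxifen-labelled ones, and Mrpl34 read 11.18, 11.11, 11.20, 11.10 and 11.02 in the vehicle-labelled arrays and 10.39, 10.58, 10.54, 10.39 and 10.40 in the tamoxifen-labelled ones. They fell by 0.74 ± 0.053 and 0.66 ± 0.056 (SE). In these 5 genes no tamoxifen-labelled value reached the lowest vehicle-labelled one.

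Of 8 genes placed here around the exit tunnel, where the new peptide leaves the ribosome, 3 fell and 5 were not called. Over all members 62.3% fell, and over all genes 8.28%. The tunnel group, and the stalk and peptidyl transferase groups below, were chosen after the fold changes were seen. They may not be full lists, and differences between sites were not tested. Mrpl45, which helps to hold the ribosome at the inner membrane, read 8.73, 8.91, 8.97, 8.76 and 8.69 in the vehicle-labelled arrays and 8.15, 8.27, 8.46, 7.98 and 8.27 in the tamoxifen-labelled ones, a fall of 0.59 ± 0.080 (SE; adjusted p = 5.56e-05). Mrpl44, a protein with a ribonuclease fold whose human gene is linked to infantile cardiomyopathy, fell by 0.21 ± 0.066 (SE; adjusted p = 0.0291) with overlapping groups, and was not called without vehicle-labelled array 2 or 3 or tamoxifen-labelled array 3 or 5 (adjusted p from 0.0688 to 0.0750). Mrpl39 read 11.36, 11.39, 11.38, 11.33 and 11.31 in the vehicle-labelled arrays and 11.20, 11.37, 11.22, 11.26 and 11.19 in the tamoxifen-labelled ones. At -0.11 ± 0.049 (SE; adjusted p = 0.137) it was not called, but it was without tamoxifen-labelled array 2 (adjusted p = 0.0247). The tunnel proteins Mrpl17, Mrpl22, Mrpl23 and Mrpl24 ranged from -0.074 to -0.040. Within this one site the log2 fold changes of the probe sets used ran from -0.94 for Mrpl47 (-0.34 in its other probe set) to -0.040 for Mrpl22.

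The stalks are the mobile arms of the large subunit. Beside Mrpl12, the stalk-base protein Mrpl10 read 10.75, 10.67, 10.73, 10.70 and 10.66 in the vehicle-labelled arrays and 10.46, 10.44, 10.38, 10.34 and 10.28 in the tamoxifen-labelled ones, and fell by 0.32 ± 0.049 (SE; adjusted p = 0.000175). Mrpl1, of the arm beside the site where transfer RNA leaves, read 9.53, 9.71, 9.66, 9.54 and 9.60 in the vehicle-labelled arrays and 9.07, 9.24, 9.11, 9.05 and 9.08 in the tamoxifen-labelled ones, a fall of 0.50 ± 0.054 (SE; adjusted p = 4.74e-06). Both genes had separate groups. Mrpl11, the other protein of the factor-binding stalk base, read 9.37, 9.57, 9.54, 9.43 and 9.62 in the vehicle-labelled arrays and 9.48, 9.62, 9.48, 9.61 and 9.53 in the tamoxifen-labelled ones. Its groups overlapped and its log2 fold change was 0.038 ± 0.057 (SE; adjusted p = 0.693), so 3 of the 4 stalk genes examined fell.

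Of 7 genes placed here at the central protuberance, the crown that faces the small subunit, 6 fell, Mrpl18 by most of these. The group was chosen after the fold changes were seen, and Mrpl55, which fell by 0.88, was not placed in it. Mrpl58, a peptidyl-tRNA hydrolase that frees stalled ribosomes and is also a structural member, read 9.49, 9.58, 9.59, 9.50 and 9.51 in the vehicle-labelled arrays and 9.12, 9.23, 9.16, 9.23 and 9.16 in the tamoxifen-labelled ones. It fell by 0.35 ± 0.047 (SE; adjusted p = 4.12e-05). Mrpl46, Mrpl38 and Mrpl48 fell by 0.36 ± 0.063, 0.28 ± 0.049 and 0.24 ± 0.052. Mrpl40 was the weakest call of all members, at -0.15 ± 0.052 (SE; adjusted p = 0.0492), and was lost when any array but tamoxifen-labelled array 2 was left out (adjusted p from 0.0526 to 0.122). Mrpl52 read 9.88, 9.75, 9.83, 9.89 and 9.77 in the vehicle-labelled arrays and 9.94, 10.02, 10, 9.79 and 9.92 in the tamoxifen-labelled ones. It had the highest log2 fold change of the large subunit, 0.11 ± 0.054 (SE; adjusted p = 0.168), and was not called.

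Of 4 genes placed here near the peptidyl transferase centre, 2 fell. Mrpl3, whose human gene is also linked to infantile cardiomyopathy, fell by 0.50 ± 0.045 (SE; adjusted p = 6.32e-07), and Mrpl27 by 0.22 ± 0.057 (SE; adjusted p = 0.0124). Mrpl2, the gene for a core protein of this centre, read 9.0, 9.12, 9.12, 9.05 and 9.10 in the vehicle-labelled arrays and 8.98, 9.0, 8.97, 8.92 and 8.82 in the tamoxifen-labelled ones. It missed the threshold at -0.14 ± 0.050 (SE; adjusted p = 0.0572) and passed without tamoxifen-labelled array 2 (adjusted p = 0.0315). Mrpl16 was at -0.066 ± 0.051 (SE; adjusted p = 0.390). Among further counterparts of bacterial proteins, Mrpl9 read 9.19, 9.12, 9.03, 9.09 and 9.26 in the vehicle-labelled arrays and 8.70, 8.45, 8.62, 8.61 and 8.42 in the tamoxifen-labelled ones, and Mrpl19, whose bacterial counterpart lies at the interface of the subunits, read 9.27, 9.34, 9.42, 9.16 and 9.11 in the vehicle-labelled arrays and 8.73, 8.81, 8.73, 8.65 and 8.74 in the tamoxifen-labelled ones. Their falls were 0.58 ± 0.063 and 0.53 ± 0.061, and the groups were apart in both. Mrpl30, Mrpl35, Mrpl15, Mrpl4 and Mrpl28 fell by 0.51, 0.39, 0.38, 0.35 and 0.30. The remaining called genes of the large subunit, Mrpl13, Mrpl14, Mrpl21, Mrpl37, Mrpl41, Mrpl42, Mrpl43, Mrpl49, Mrpl50 and Mrpl51, fell by 0.18 to 0.40. The remaining genes not called, Mrpl20, Mrpl32, Mrpl33, Mrpl36, Mrpl54 and Mrpl57, lay between -0.11 and 0.078, and of these Mrpl32 passed as lower without tamoxifen-labelled array 2 (adjusted p = 0.0262).

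In the small subunit the deepest fall was that of Mrps35, a protein with no bacterial counterpart. It read 9.83, 10.02, 9.96, 9.83 and 9.85 in the vehicle-labelled arrays and 9.07, 9.21, 9.21, 9.21 and 9.01 in the tamoxifen-labelled ones, a fall of 0.76 ± 0.058 (SE; adjusted p = 1.09e-07), or 1.69-fold. Mrps9, whose bacterial counterpart lies in the head of the subunit, read 9.06, 9.18, 9.18, 9.12 and 9.08 in the vehicle-labelled arrays and 8.50, 8.55, 8.51, 8.53 and 8.50 in the tamoxifen-labelled ones. It fell by 0.61 ± 0.046 (SE; adjusted p = 8.25e-08), with a narrow spread in the tamoxifen-labelled group (SD 0.022, n = 5). Of the other 3 head genes examined, Mrps7, Mrps10 and Mrps14, none was called (-0.066 to -0.012). This group was chosen after the fold changes were seen and is not a full list of the head. Mrps24, Mrps31, Mrps33 and Mrps35, which fell, were not placed in it, so it gives no share for the head. Mrps5 and Mrps24, the genes examined for the mRNA entry, both fell, but they were also chosen after the fold changes were seen and may not be a full list. Mrps5 read 9.65, 9.80, 9.77, 9.74 and 9.65 in the vehicle-labelled arrays and 9.06, 9.33, 9.28, 9.06 and 9.20 in the tamoxifen-labelled ones, and Mrps24 read 9.77, 9.81, 9.80, 9.79 and 9.84 in the vehicle-labelled arrays and 9.49, 9.69, 9.54, 9.60 and 9.44 in the tamoxifen-labelled ones. Their falls were 0.54 ± 0.061 and 0.25 ± 0.052, with the groups apart.

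Mrps2, the counterpart of a bacterial protein between head and body, read 9.87, 9.86, 9.86, 9.91 and 9.76 in the vehicle-labelled arrays and 9.30, 9.44, 9.33, 9.38 and 9.31 in the tamoxifen-labelled ones. It fell by 0.50 ± 0.049 (SE; adjusted p = 1.36e-06). Mrps27, a pentatricopeptide repeat protein, read 8.68, 8.80, 8.59, 8.54 and 8.60 in the vehicle-labelled arrays and 8.18, 8.34, 8.29, 8.32 and 8.19 in the tamoxifen-labelled ones. Mrps33 read 10.41, 10.44, 10.52, 10.39 and 10.44 in the vehicle-labelled arrays and 10.06, 10.19, 10.05, 10.07 and 10.05 in the tamoxifen-labelled ones, and Mrps23 read 10.93, 10.99, 11, 10.93 and 10.89 in the vehicle-labelled arrays and 10.61, 10.76, 10.64, 10.62 and 10.54 in the tamoxifen-labelled ones. These 3 genes fell by 0.38 ± 0.058, 0.36 ± 0.048 and 0.31 ± 0.051, with no overlap of the groups. Mrps28 read 9.48, 9.35, 9.36, 9.34 and 9.42 in the vehicle-labelled arrays and 9.13, 9.33, 9.09, 9.13 and 9.14 in the tamoxifen-labelled ones, where a fall of 0.23 ± 0.055 (SE; adjusted p = 0.00715) left the highest tamoxifen-labelled value just under the lowest vehicle-labelled one. Mrps31, Mrps34 and Mrps17 fell by 0.27 ± 0.052, 0.20 ± 0.054 and 0.23 ± 0.061. Mrps16 was called at -0.19 ± 0.066 (SE; adjusted p = 0.0440), and this was lost without vehicle-labelled array 2, 3, 4 or 5 or tamoxifen-labelled array 1, 3, 4 or 5 (adjusted p from 0.0563 to 0.121).

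**Figure D3:**
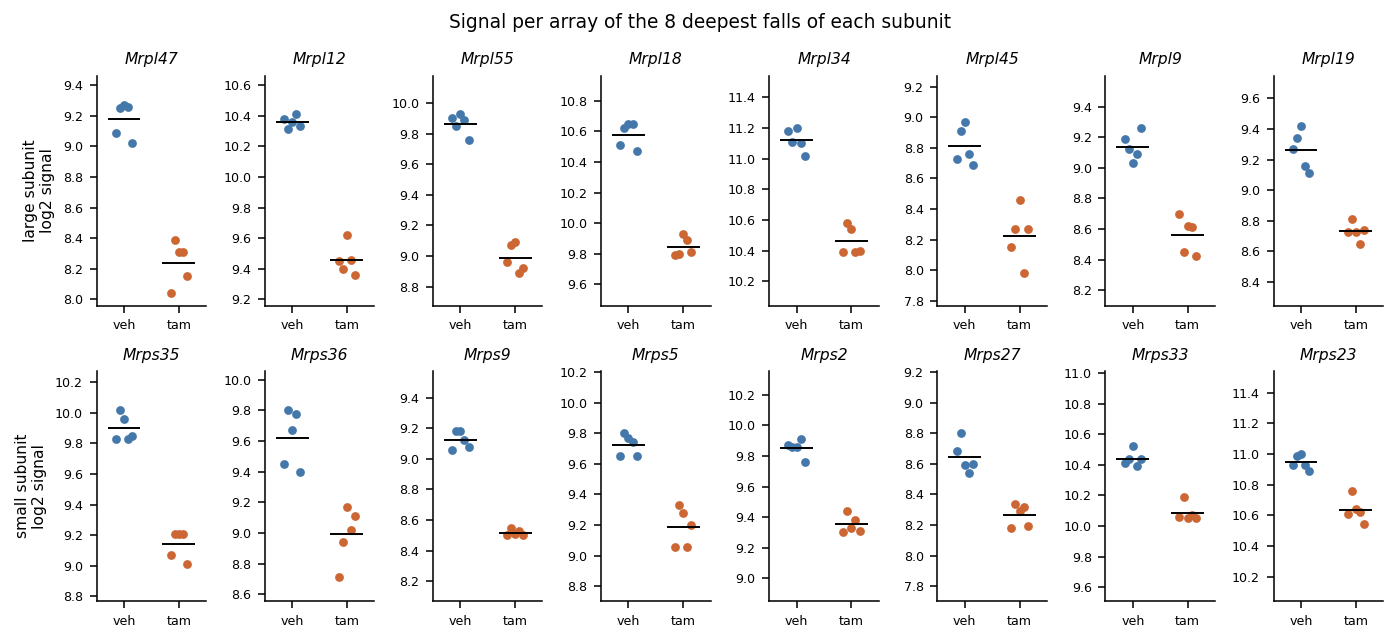
Log2 signal (y axis, a span of the same width in each panel, not from 0) in the 5 vehicle-labelled (veh) and 5 tamoxifen-labelled (tam) arrays for the 8 deepest falls of the large (top) and small (bottom) subunit; lines are group means. In all 16 genes the 2 groups are apart, from a difference of 0.94 in Mrpl47 to one of 0.31 in Mrps23.

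The 4 genes placed here on the platform of the small subunit were not called, and nor was Mrps12 of the decoding site. The platform group was chosen after the fold changes were seen and may not be a full list, so it gives no share for the platform. Mrps12, which guards the accuracy of decoding, read 7.51, 7.81, 7.68, 7.77 and 7.68 in the vehicle-labelled arrays and 7.68, 7.84, 7.46, 7.63 and 7.51 in the tamoxifen-labelled ones. Its log2 fold change was -0.066 ± 0.073 (SE; adjusted p = 0.572). On the platform 0 of 4 genes fell or rose by limma, and at an unadjusted p under 0.05 there was 1 lower, Mrps11, and 1 higher, Mrps18c. Mrps21 had the largest SD of all members in the tamoxifen-labelled group, 0.27 around a mean of 11.79. In the vehicle-labelled group its SD was 0.18 around a mean of 11.73 (n = 5 each). Mrps6 and Mrps11 were at -0.072 and -0.13. Mrps15, Mrps25 and Mrps26 lay between -0.17 and -0.032. Mrps22, another gene linked to human cardiomyopathy, read 9.32, 9.32, 9.39, 9.16 and 9.21 in the vehicle-labelled arrays and 9.11, 9.30, 9.17, 9.05 and 9.10 in the tamoxifen-labelled ones. At -0.13 ± 0.059 (SE; adjusted p = 0.123) it was not called, and it passed without tamoxifen-labelled array 2 (adjusted p = 0.0317).

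The Mrps18 family holds 3 related genes, of which Mrps18c alone is counted here as the counterpart of the bacterial protein. Mrps18a read 10.13, 10.22, 10.22, 10.15 and 10.13 in the vehicle-labelled arrays and 10.10, 10.05, 9.98, 9.91 and 10.18 in the tamoxifen-labelled ones. Mrps18b read 9.86, 10.05, 10.05, 9.98 and 10 in the vehicle-labelled arrays and 9.88, 9.92, 9.91, 9.92 and 9.89 in the tamoxifen-labelled ones. Mrps18c, on the platform, read 9.47, 9.63, 9.61, 9.63 and 9.60 in the vehicle-labelled arrays and 9.68, 9.79, 9.70, 9.72 and 9.74 in the tamoxifen-labelled ones. The first pair had overlapping groups and log2 fold changes of -0.13 ± 0.055 (SE; adjusted p = 0.118) and -0.084 ± 0.049 (SE; adjusted p = 0.244). Mrps18c went the other way at 0.14 ± 0.049 (SE; adjusted p = 0.0528): each tamoxifen-labelled value was above each vehicle-labelled one, yet the adjusted p missed the threshold. It passed as higher in 5 of 19 alternative analyses, with adjusted p from 0.0181 to 0.0450, and over all 19 the adjusted p ran from 0.0181 to 0.143.

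Names and structure differ for 3 members. Mrps30 and Mrps18a carry small-subunit names but sit in the large subunit of the assembled mammalian particle. Mrps30 read 8.15, 8.31, 8.17, 8.11 and 8.22 in the vehicle-labelled arrays and 7.85, 8.12, 7.82, 8.09 and 7.98 in the tamoxifen-labelled ones, and fell by 0.22 ± 0.065 (SE; adjusted p = 0.0223), a call lost without vehicle-labelled array 2 or tamoxifen-labelled array 1 or 3 (adjusted p from 0.0587 to 0.0658). Mrps36, also known as Kgd4, is now placed in the 2-oxoglutarate dehydrogenase complex of the TCA cycle and not in the ribosome. It read 9.45, 9.80, 9.67, 9.78 and 9.40 in the vehicle-labelled arrays and 8.71, 8.94, 9.17, 9.02 and 9.11 in the tamoxifen-labelled ones, a fall of 0.63 ± 0.092 (SE; adjusted p = 0.000112), the second deepest under a small-subunit name. Sorted by structure, 34 of 50 large-subunit and 13 of 26 small-subunit genes fell, with medians of -0.24 and -0.18.

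Members were also split by whether their protein keeps a bacterial counterpart under the current naming of ribosomal proteins, with the paralogs Mrps18a and Mrps18b counted as having none. Of 46 members with a bacterial counterpart 26 fell (median -0.22), and of 31 without one, 22 fell (median -0.24). In the large subunit the counts were 19 of 30 with and 14 of 18 without a counterpart, with medians of -0.27 and -0.24. In the small subunit they were 7 of 16 and 8 of 13, with medians of -0.10 and -0.22. In both subunits the share that fell was higher among genes without a counterpart, a description with no test. Across the genes, brightness in the vehicle-labelled arrays and log2 fold change were weakly related, with a Spearman correlation of -0.17 over 48 large-subunit and -0.14 over 29 small-subunit genes (genes share the arrays and are not replicates, so no p is given).

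The 8 members with a second probe set allow a comparison within the same arrays, in which a copy of the gene elsewhere in the genome could be read as well. The brighter one was used. Mrpl51 read 11.30, 11.36, 11.40, 11.39 and 11.30 in the vehicle-labelled arrays and 10.92, 11.09, 11.07, 10.99 and 10.95 in the tamoxifen-labelled ones, a difference of -0.35, and -0.38 in its other probe set. Mrpl41 read 8.60, 8.58, 8.70, 8.63 and 8.51 in the vehicle-labelled arrays and 8.03, 8.26, 8.26, 8.14 and 8.35 in the tamoxifen-labelled ones, with -0.40 and -0.35. For Mrps33, Mrps36 and Mrps5 the differences were -0.36, -0.63 and -0.54 in the brighter and -0.36, -0.62 and -0.48 in the dimmer probe set. Mrpl27 read 9.59, 9.53, 9.59, 9.40 and 9.60 in the vehicle-labelled arrays and 9.25, 9.46, 9.32, 9.24 and 9.36 in the tamoxifen-labelled ones, with -0.22 and -0.24. Mrpl23 read 11.12, 11.31, 11.32, 11.34 and 11.32 in the vehicle-labelled arrays and 11.11, 11.25, 11.15, 11.30 and 11.23 in the tamoxifen-labelled ones, with -0.074 and -0.10. Both probe sets had the same sign in all 8 genes, and the sizes parted by over 1.5 times only in Mrpl47. Whether the probe sets of a gene read separate sequences was not tested, so their agreement is not a separate check.

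Promoters were read for known motifs because the coactivators act through factors that bind there. The RefSeq-derived promoter table (GRCm38.p6) holds 300 bases per start site, 250 before it and 50 after, for 68 of the 77 members. Searched on both strands were TCAAGGTCA (the oestrogen-related receptor element), GCGCNTGCG (NRF1), CCGGAAGT (ETS factors such as GABP) and AAGATGGC (YY1), and no matches of different motifs overlapped in members. The NRF1 letters were in 18 members (26.5%, against 13.7% of 11063 tested genes with a promoter), the ETS letters in 12 (17.6%, against 7.82%) and the YY1 letters in 12 (17.6%, against 4.65%). The receptor element was in 0 members (0.343% of tested genes). At so low a share over all genes, 0 in 68 members says little. By subunit the NRF1 letters were in 13 of 42 large-subunit and 5 of 26 small-subunit promoters, the ETS letters in 8 and 4, and the YY1 letters in 6 and 6. Of 40 members that fell, 9 held the NRF1 letters (22.5%), and of 28 that were not called, 9 did (32.1%). For ETS these were 7 and 5 (17.5% and 17.9%), and for YY1 6 and 6 (15% and 21.4%), so the shares were no higher among the genes that fell. These are matches of letters, not sites shown to be bound.

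The following 120-base stretches were taken from the 250 bases before the start site and show such matches in capitals. They are from genes with deep falls and from a pair that was not called. Mrpl47 is shown as the deepest fall by the probe sets used, with no match before its start. Each is 5′ to 3′ on the gene's strand. The match ends 73 bases before the start in Mrpl12, 233 in Mrpl18, 42 in Mrps27, 150 in Mrps18c and 48 in Mrpl57. Mrpl45 has NRF1 matches at 111 and 29 bases, and in Mrpl9 the NRF1 letters are found on both strands in overlapping matches, ending 20 and 19 bases before the start.
Mrpl47 (chr3:32736756-32736875, minus strand; fell, no match): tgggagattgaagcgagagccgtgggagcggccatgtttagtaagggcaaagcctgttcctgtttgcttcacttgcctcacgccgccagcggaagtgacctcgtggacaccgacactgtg
Mrpl12 (chr11:120484500-120484619, plus strand; fell, NRF1): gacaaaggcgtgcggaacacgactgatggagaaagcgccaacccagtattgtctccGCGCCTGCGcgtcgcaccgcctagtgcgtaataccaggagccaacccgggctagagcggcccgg
Mrpl45 (chr11:97315582-97315701, plus strand; fell, NRF1): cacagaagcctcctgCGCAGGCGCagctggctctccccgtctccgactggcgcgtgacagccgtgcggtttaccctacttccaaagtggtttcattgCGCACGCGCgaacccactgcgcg
Mrpl9 (chr3:94443216-94443335, plus strand; fell, NRF1): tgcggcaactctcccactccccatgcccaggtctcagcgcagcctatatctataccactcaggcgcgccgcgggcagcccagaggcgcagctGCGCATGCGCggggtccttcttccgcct
Mrpl18 (chr17:12916222-12916341, minus strand; fell, ETS): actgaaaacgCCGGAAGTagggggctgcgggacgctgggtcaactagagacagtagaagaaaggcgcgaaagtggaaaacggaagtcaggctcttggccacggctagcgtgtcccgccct
Mrps27 (chr13:99344666-99344785, plus strand; fell, ETS): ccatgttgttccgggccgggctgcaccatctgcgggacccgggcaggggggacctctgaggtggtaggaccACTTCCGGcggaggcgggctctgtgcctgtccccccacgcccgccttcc
Mrps18c (chr5:100798546-100798665, plus strand; not called, ETS): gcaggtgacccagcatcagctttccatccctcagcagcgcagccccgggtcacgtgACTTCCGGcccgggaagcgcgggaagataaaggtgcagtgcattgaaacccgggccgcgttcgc
Mrpl57 (chr14:57826119-57826238, plus strand; not called, NRF1): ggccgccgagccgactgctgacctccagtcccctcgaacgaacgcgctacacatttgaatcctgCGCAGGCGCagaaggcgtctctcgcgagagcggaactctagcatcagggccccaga

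Some members start close to another gene that is transcribed the opposite way. Such a head-to-head neighbour, starting within 1000 bases, was found for 26 of the 68 members whose promoters were read. Of the 26 neighbours 21 were tested. How many of all genes have such a neighbour was not counted, and whether a pair shares a promoter was not tested. Of these 8 fell (38.1%, against 8.28% of all genes), 2 rose, and the median was -0.054. The 21 include Mrpl46 and Mrps11, which are members themselves, and Mrpl46 is among the 8. Others of the 8, such as Ndufb5, Twnk and Sars2, also serve mitochondria, so all genes are not a like group to compare with. Of the 15 tested neighbours of members that fell, 6 fell. The other neighbours that fell, Mrpl46 and Sars2, lie beside members that were not called. Whether the fall of a neighbour goes with that of its member was not tested. Mrpl47 and Ndufb5, a complex I subunit gene, fell together, Ndufb5 by 0.73 ± 0.056. So did Mrpl43 with Twnk, the helicase of mitochondrial DNA (-0.44 ± 0.058), Mrps27 with Ptcd2 (-0.35 ± 0.059), Mrpl51 with the condensin gene Ncapd2 (-0.47 ± 0.063), Mrpl14 with Tmem63b (-0.22 ± 0.054) and Mrpl50 with Zfp189 (-0.17 ± 0.056). Other pairs parted. Mrpl18 fell by 0.74 while Tcp1, a cytosolic chaperonin subunit, rose by 0.19 ± 0.051 (adjusted p = 0.0120), and Mrpl49 fell while Fau, which encodes a cytosolic ribosomal protein, rose by 0.16 ± 0.045 (adjusted p = 0.0213). Mrps12 was not called beside Sars2, the mitochondrial seryl-tRNA synthetase, which fell (-0.31 ± 0.056). Mrpl46 and Mrps11 are neighbours of each other, and only Mrpl46 passed the test (-0.36 against -0.13); the difference between the 2 genes was not tested. Without 1 array the call of Zfp189 was lost for vehicle-labelled array 1, 3, 4 or 5 and tamoxifen-labelled array 3 or 5, and that of Fau for vehicle-labelled array 1 or tamoxifen-labelled array 4 (adjusted p from 0.0564 to 0.0878). This comparison was added after the fold changes were seen.

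**Figure D4:**
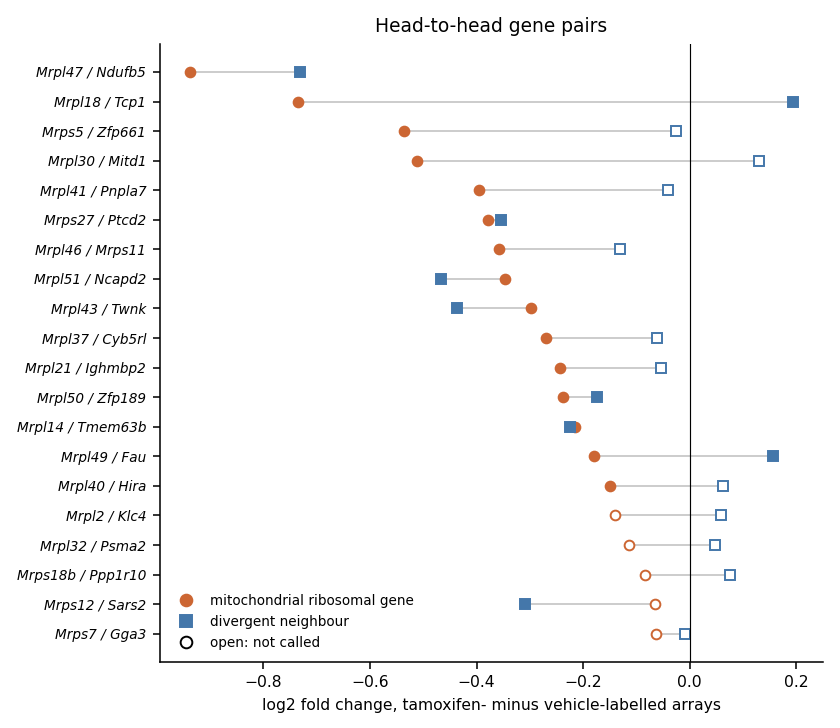
Log2 fold change (x axis) of 20 head-to-head pairs with a tested neighbour, the mitochondrial ribosomal gene as a circle and its neighbour as a square; filled symbols had a limma adjusted p under 0.05. In 6 of the pairs both symbols are filled and below 0, with Mrpl47 and Ndufb5 lowest, and in the pairs of Mrpl18 with Tcp1 and of Mrpl49 with Fau the filled symbols lie on opposite sides of 0.

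Other genes of mitochondrial translation were read from lists. For comparison, 8.28% of all genes tested fell and 13.6% rose. Among ribosomal proteins under other names, Ptcd3 fell by 0.52 ± 0.051, and Dap3, Chchd1 and Gadd45gip1 were not called (-0.10, 0.074 and -0.034). Of 26 assembly factors tested 9 fell and limma called 0 higher (0 higher also at an unadjusted p under 0.05; median -0.13). They include the ribosomal RNA methyltransferase gene Mrm3 (-0.64), C1qbp (-0.56), Nsun4 (-0.29) and Mettl17 (-0.35). The count was 15 without tamoxifen-labelled array 2, 5 without vehicle-labelled array 5, and 16 with array weights or quantile normalization. Of 12 translation factors 8 fell and 0 rose by limma (0 also unadjusted; median -0.35), led by the elongation factor gene Tufm (-0.78 ± 0.050), the activator of Cox1 synthesis Taco1 (-0.66), Gfm1 (-0.61) and Tsfm (-0.38). Tufm and Mrpl12, which meet on the ribosome, were thus among the deepest falls of their lists. Of 21 aminoacyl-tRNA synthetase and amidotransferase genes 10 fell and 0 rose by limma (1 unadjusted; median -0.12), with Qrsl1 at -0.52, Fars2 at -0.42, Yars2 at -0.40 and Sars2 at -0.31. That count was 6 without vehicle-labelled array 3 or 5 or tamoxifen-labelled array 5, and with no brightness filter, and 1 gene rose with the trended prior or with median centring. Gars and Kars, which also serve the cytosol, were not called (0.082 and 0.016).

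Among 15 tested regulators of nuclear genes for mitochondria 5 fell (33.3%, against 8.28% of all genes). In this list 3 rose (20%, against 13.6%), and the median was 0.026. The receptor genes Esrra and Esrrb fell (-0.42 and -0.25), as did Tfb2m (-0.40), Tfam (-0.36) and Gabpa (-0.21), the DNA-binding subunit of GABP. Nrf1 and Yy1 were at 0.036 and 0.030 and were not called. The 3 that rose were the coactivator genes Ppargc1a, Ppargc1b and Pprc1. The call of Esrrb was lost without tamoxifen-labelled array 1, 3 or 5 (adjusted p from 0.0517 to 0.0564), and that of Pprc1 without any 1 array other than vehicle-labelled array 2 or tamoxifen-labelled array 3 (0.0542 to 0.109).

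Ribosomal proteins of the cytosol, which do the same work on nuclear messages, went the other way. Of 53 tested genes 31 rose (58.5%, against 13.6% of all genes) and 1 fell, Rplp2, with a median of 0.17. The call of Rplp2 was lost without vehicle-labelled array 4 or tamoxifen-labelled array 1, 3, 4 or 5 (adjusted p from 0.0512 to 0.0669). Rps12 rose by 0.41 ± 0.055, Rpl36a by 0.37 ± 0.045 and Rpl5 by 0.28 ± 0.045. Macrophage and fibroblast markers rose in the same arrays, as given above, and their part in this was not tested. The directions of both families held under quantile normalization (median -0.27 large, -0.22 small and 0.15 cytosolic), under centring on the array median (-0.23, -0.19 and 0.18) and without tamoxifen-labelled array 2 (-0.26, -0.23 and 0.16).

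**Figure D5:**
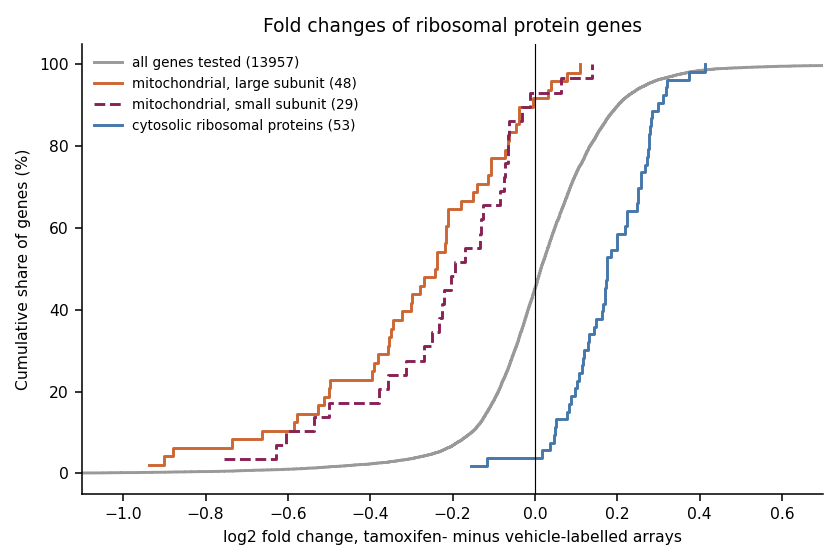
Cumulative share of genes (y axis, percent) against log2 fold change (x axis) for all 13957 genes tested, the large-subunit, the small-subunit and the cytosolic ribosomal protein genes. The mitochondrial curves lie to the left of all genes, with medians of -0.24 and -0.19, and the cytosolic curve to the right, with a median of 0.17.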

How the data were processed

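Per the labels' protocols and the submitters' processing notes, total RNA of ventricles was hybridised to 1-colour Affymetrix gene arrays, and the authors deposited log2 values of 35556 probe sets, made by RMA (background correction, quantile normalization and summary of probes) in Affymetrix Expression Console 1.1. RMA evens out the arrays' distributions, so a shift common to all genes would not be seen, and differences of dim probe sets are compressed. Probe sets with 1 gene symbol in the platform annotation were kept, 21789 in all, with the brightest probe set for each gene. The dimmest 30% of genes (mean log2 signal under 6.53) were left out. The remaining 13957 genes were compared between the groups by lmFit and eBayes of limma 3.58.1 (R 4.3.3), with no covariate, with Benjamini-Hochberg adjustment over all of them and a threshold of 0.05. Precision is limited by the number of arrays, 5 in each group; over all genes, the residual SD had a median of 0.0943 (log2). The p-values measure the spread between mice. No 2 arrays held identical values. All 77 member symbols matched RefSeq. Mrpl53 shares its probe set with Ccdc142 and lies outside the rule. The script was tested on simulated data. The alternatives were quantile normalization, median centring, array weights, other priors, filters and probe set rules, a replicate block and leaving out each array.

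Any member could be named. Values in every array were given for the 8 deepest falls of each subunit, the 3 uncalled members with the smallest p in each, members with a described role and members with a second probe set. For each other list at most 4 genes of smallest p were to be named, and further genes there were chosen after their values were seen. The members and lists were chosen with earlier results of these data known, and the structural role groups and the head-to-head neighbours after the fold changes were seen. Scan batches were not analysed here.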

Additional observations from a re-analysis of the deposited data

Results flagged for a closer look

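In a group of 5 arrays, a sample was singled out when its gap to the nearest value, divided by the group's range, was above Dixon's critical value of 0.71. Of 160 series of values tested, 9 had such a sample, and chance gives about 1 in 20. In 6 of the 9 it was tamoxifen-labelled array 2, each time as the highest of its group: Mrpl32 at 9.19, Mrpl33 at 8.75, Mrpl57 at 10, Mrps28 at 9.33, Mrps33 at 10.19 and the mean of the small subunit at 9.244. Vehicle-labelled array 1 was the lowest of its group for Mrpl23, at 11.12, and for Mrps18c, at 9.47. Vehicle-labelled array 3 was the highest for Mrps25, at 8.96.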

How the results depend on the processing

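The count of members that fell was 48 and lay between 44 and 55 over 19 alternatives, 10 of which left out 1 array each. Of the 48 calls, 44 held wherever they were tested, and Mrpl40, Mrps16, Mrpl44 and Mrps30 were lost in at least 1 alternative. No called member changed sign. Of 29 members not called, 8 passed in at least 1 alternative. The count of members that rose went from 0 to 1 (Mrps18c) with the replicate block, the trended and robust prior, array weights, median centring and the filter on the dimmest 50%. With array weights 1784 genes fell in place of 1155. Signs turned for 5 members near 0. Mrpl33 was at -0.004026 with array weights. When each array was left out in turn, Mrpl22 ran from -0.117 to 0.0245, Mrpl36 from -0.033 to 0.022, Mrps10 from -0.055 to 0.0155 and Mrps21 from -0.0055 to 0.155; the cause was not tested. With probe sets of several symbols kept, Mrpl53 was at -0.082 (limma adjusted p = 0.236). Deviations of arrays with the same number correlated at 0.173, 0.203, 0.0982, 0.0373 and 0.173. Of 5 vehicle-labelled arrays, 4 matched their own number best. The main fit did not take the numbers as pairs, and whether arrays of the same number shared a batch was not tested. With the replicate block 47 members fell and Mrps16 was lost. Over all genes 1297 fell and 2225 rose with the block, against 1155 and 1897 without it.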
